A study of Danio rerio with 16 samples.

Results

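The comparison described here is that of primordial germ cells (PGCs) with somatic cells of zebrafish embryos at 4 h post fertilisation (hpf), by whole-genome bisulfite sequencing (WGBS). In this assay unmethylated cytosines are converted and read as thymine, so that each sequenced CpG gives a methylated or an unmethylated call. Its members were chosen by sample label alone, and they are 4 of the 16 libraries of the study, namely PGC replicates 1 and 2 and soma replicates 1 and 2. All groups came from a single transgenic line (kop-egfp-f-nanos3′UTR, to which the study's methods add a cry:dsred cassette), whose fluorescent product marks PGCs for fluorescence-activated cell sorting, and the somatic cells were sorted from those embryos as well. The libraries of 7, 24 and 36 hpf come from the same line and were used to set compartments, to follow loci that differed at 4 hpf and to compare the stages. Methylation levels were counted over 10260021 nuclear CpGs listed in the tables of both replicates, and 361294 of 1114539 bins of 1 kb held at least 3 such CpGs and at least 20 calls in each of the 4 libraries. The identity of the sorted cells could not be checked here, because methylation calls carry no marker expression.

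In zebrafish, PGCs are set aside early by germ plasm, maternal RNA and protein that a few cells inherit, and at the blastula stage they sit among cells that will form the rest of the body. Cytosine methylation in vertebrates covers most CpGs of the genome. The main exceptions are CpG-dense stretches, often at gene starts, which stay free of it. In mammals the germ line loses most of its methylation during its early development, and for this reason PGCs are compared with soma in other vertebrates.

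The depth of the 4 libraries was unequal. The mean number of calls per CpG was 3.35 and 8.37 in PGC replicates 1 and 2, and 2.40 and 10.96 in soma replicates 1 and 2, so that replicate 1 is the shallow pair. In soma replicate 1, 37.7% of CpGs had a single call. Spiked-in lambda DNA, which is unmethylated, was read as methylated at 0.367% of calls in PGC replicate 1 and 0.452% in soma replicate 1, and the replicate 2 table listed only 47 lambda CpGs. The study's methods call the 4 hpf replicates technical, so that SDs and p-values may cover technical variation only. With 2 libraries against 2, an exact permutation test of the labels cannot give a p below 0.333, so that this test cannot pass 0.05 for any single value. Counts of calls cover counting error only, because they hold no spread between libraries. Reads are not independent molecules. Neighbouring CpGs can also lie on the same read, so that the number of calls overstates the number of molecules.

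PGCs and soma had nearly the same overall methylation at 4 hpf, and the sign of the small gap between them depended on how CpGs were weighted. Pooled over all calls, the level was 83.4% and 83.5% in the PGC replicates and 83.2% and 84.4% in the soma replicates. The PGC values thus lay between the soma values, and the difference of the group means was -0.336 points (exact two-sided permutation test, p = 1). When each CpG counted once whatever its depth, the level was 87.50% and 87.45% in PGCs and 87.24% and 87.26% in soma. Here both PGC libraries were above both soma libraries by a mean of 0.222 points, with an SD of 0.0370 in PGCs and 0.0101 in soma (n = 2 each, exact permutation p = 0.333).

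The gap between these 2 measures could be followed to where the calls fell. In replicate 2 the pooled difference of -0.880 points split into 0.119 points from levels within 1 kb bins and -0.9996 points from the distribution of calls over bins. In replicate 1 the corresponding parts of 0.208 points were 0.272 and -0.0635. The levels within bins were thus slightly higher in PGCs in both replicates, and the distribution of calls pulled the pooled value the other way. A single locus of chromosome 4, described below, weighed on replicate 1. Without its 649 CpGs, an alternative chosen after seeing the data, the pooled differences were 0.0362 and -0.898 points in replicates 1 and 2. That of the group means was then -0.431 points, and the split into parts was not repeated. Bins that were unmethylated at 7 hpf (under 10% in the summed libraries) held 6.57% of CpGs. They took 10.5% and 10.6% of the calls of the PGC libraries, against 10.2% and 9.56% of those of the soma libraries. Their depth relative to the library mean was 1.60 and 1.61 in PGCs and 1.55 and 1.46 in soma.

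The same weighting mattered for each chromosome. With each CpG counted once, PGCs were higher than soma on 25 of 25 chromosomes in both replicates, by 0.145 to 0.335 points in replicate 1 and 0.147 to 0.236 points in replicate 2. In pooled calls, PGCs were higher in both replicates on 0 chromosomes, lower in both on 10 and of opposite sign on 15. The lowest pooled differences were on chromosome 19 (-0.671 points) and chromosome 7 (-0.636), and the highest were on chromosome 15 (-0.149) and chromosome 4 (1.74). The value of chromosome 4 came from soma replicate 1 alone, at 81.4% against 85.0%, 84.9% and 85.1% in PGC replicates 1 and 2 and soma replicate 2. Chromosomes share each library, so these counts are no independent repeats of the comparison.

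A higher value in PGCs was also seen in the share of CpGs methylated in every call, within a small well-covered set. CpGs with at least 5 calls in each of the 4 libraries (518681 CpGs, 5.06% of those shared) were thinned to 5 calls. In pooled calls before thinning, these CpGs had the opposite sign. They were at 61.3% and 58.7% in PGCs and 60.8% and 61.3% in soma, a difference of -1.06 points (exact permutation p = 0.667). The share methylated in 5 of 5 calls was 54.3% and 53.9% in PGCs and 53.8% and 53.5% in soma, so that both PGC libraries were above both soma libraries by a mean of 0.484 points (SD 0.272 and 0.212, n = 2, exact permutation p = 0.333). The share methylated in 0 of 5 calls was 31.6% and 31.4% in PGCs and 31.6% and 31.6% in soma, a difference of -0.0696 points (exact permutation p = 1). Partly methylated CpGs made up the rest, 14.1% and 14.7% in PGCs and 14.68% and 14.98% in soma. The share in 5 of 5 calls did not overlap between the cell types in 4 of the 5 density classes described below, and in bins of 11 to 20 CpGs the groups overlapped (exact permutation p = 0.667). The classes share each library, so that they do not repeat the comparison independently. Of these well-covered CpGs, 128581 lay in bins of over 40 CpGs, and their share of unmethylated CpGs is above that of the whole set.

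Sorting bins by how methylated they were gave a small difference whose direction followed the starting level. To keep the choice apart from the measurement, bins were placed in classes by the summed PGC and soma calls of one replicate and measured in the other. In bins of 95% and over, PGCs were higher by 0.254 points in replicate 1 and by 0.185 in replicate 2, and in bins of 80 to 95% by 0.329 and 0.0363. In bins of 5 to 20% the differences were -0.445 and -0.288 points, and in bins of 20 to 50% they were -0.343 and -0.438. The sign was thus the same in both replicates in these 4 classes. With at least 40 calls per bin and library it was the same in 3 of them, and in bins of 20 to 50% the differences were then 0.319 and -0.880 points. It was opposite in bins below 5% (-0.120 and 0.0743) and in bins of 50 to 80% (0.342 and -0.608). Around these means single bins scattered far more widely, with an SD over bins of 4.56 and 2.56 points in the highest class and 20.2 and 11.6 points in bins of 20 to 50%. Differences under 1 point were given as a description only, with no test.

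**Figure D1:**
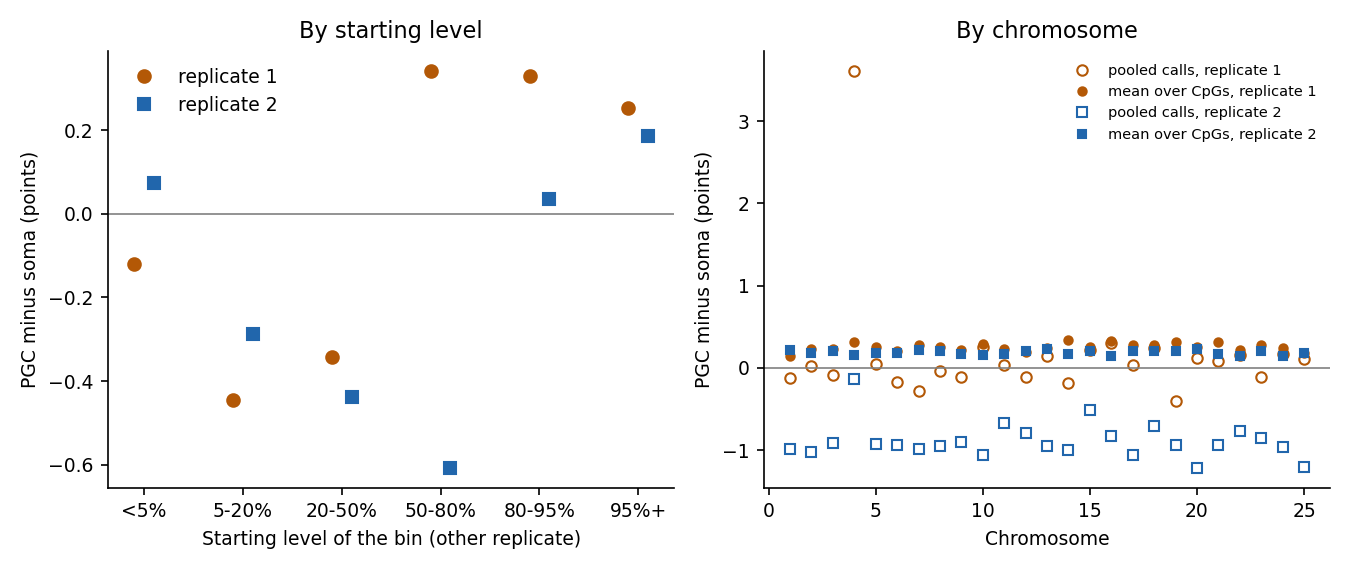
Difference of PGC and soma methylation (points, PGC minus soma) at 4 hpf by starting level of 1 kb bins (left, classes set in the other replicate) and by chromosome (right, open symbols for pooled calls and filled symbols for the mean over CpGs). Circles are replicate 1 and squares replicate 2; every filled symbol lies above 0, while the pooled values of replicate 2 lie below 0 and chromosome 4 stands apart in replicate 1 at 3.62 points.

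The level changed with CpG density in both cell types. The number of listed CpGs per 1 kb bin takes no account of methylation, and from bins of 6 to 10 CpGs upwards the level fell with it, from 91.3% and 91.3% in PGCs and 91.0% and 91.2% in soma to 75.8% and 74.8% in PGCs and 75.7% and 75.8% in soma at 21 to 40 CpGs. In the densest bins, over 40 CpGs, the level was 55.5% and 52.6% in PGCs and 53.2% and 54.8% in soma. The 2 replicates of a cell type were here further apart than the group means, which differed by 0.0294 points (exact permutation p = 1). Of the 5 classes, only that of 6 to 10 CpGs had both PGC libraries above both soma libraries, by a mean of 0.156 points (SD 0.000311 in PGCs and 0.173 in soma, n = 2, exact permutation p = 0.333 and 1 after Benjamini-Hochberg adjustment over the classes). With at least 40 calls per bin and library the groups overlapped in this class and the difference was 0.0410 points (exact permutation p = 1), and without soma replicate 1 it was 0.0332 points. Bins with few CpGs seldom passed the minimum of calls, and 0.732% of the bins of 3 to 5 CpGs were kept, against 79.7% of those of 11 to 20.

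Most unmethylated bins were shared by both cell types. The share of bins below 10% rose with density, from 2.29% and 2.21% in PGCs and 2.32% and 2.22% in soma at 6 to 10 CpGs to 30.4% and 30.4% in PGCs and 30.6% and 30.2% in soma at over 40 CpGs. PGC replicate 2 had 24155 bins below 10% and soma replicate 2 had 24006, and 23293 of them were shared, 96.4% of the former and 97.0% of the latter. In replicate 1 the cell types shared 23086, 94.3% of the bins of PGCs and 94.4% of those of soma. The 2 PGC libraries shared 23215, which is 94.9% of replicate 1 and 96.1% of replicate 2. The overlap between cell types was thus above that between PGC replicates in replicate 2 and below it in replicate 1. This order is also that of depth, which was 8.37 and 10.96 calls per CpG in the pair of replicate 2. It was 3.35 and 8.37 in the PGC pair and 3.35 and 2.40 in the pair of replicate 1. The overlaps were not compared at equal depth. In all 4 libraries 22234 bins were below 10%. There were 0 bins below 10% in both libraries of one cell type and above 50% in both of the other. By replicate alone, 44 bins were below 10% in PGCs and above 50% in soma in replicate 1 and 52 the other way, against 4 and 4 in replicate 2.

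Levels across the edges of wide unmethylated domains were also close. These 678 domains are runs of 4 or more consecutive bins below 10% at 7 hpf. In the last 200 bp inside the edge the level was 4.45% and 4.15% in PGCs and 5.01% and 4.68% in soma, where both PGC libraries were below both soma libraries by a mean of 0.540 points (exact permutation p = 0.333). In the first 200 bp outside it was 28.8% and 27.8% in PGCs and 28.6% and 27.3% in soma, and from 200 to 400 bp it was 53.9% and 54.1% in PGCs and 55.2% and 53.8% in soma. The groups overlapped in both of these windows. They overlapped in most windows further out, but some showed wider gaps with both PGC libraries below both soma libraries. The largest was from 2800 to 3000 bp, at 50.5% and 52.4% in PGCs and 52.5% and 55.4% in soma. There the difference was -2.46 points (exact permutation p = 0.333). Inside the domains, 4633 bins were methylated at 0.805% and 1.01% in PGCs and 0.916% and 0.922% in soma, against 0.367% and 0.452% in lambda DNA of the replicate 1 libraries.

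**Figure D2:**
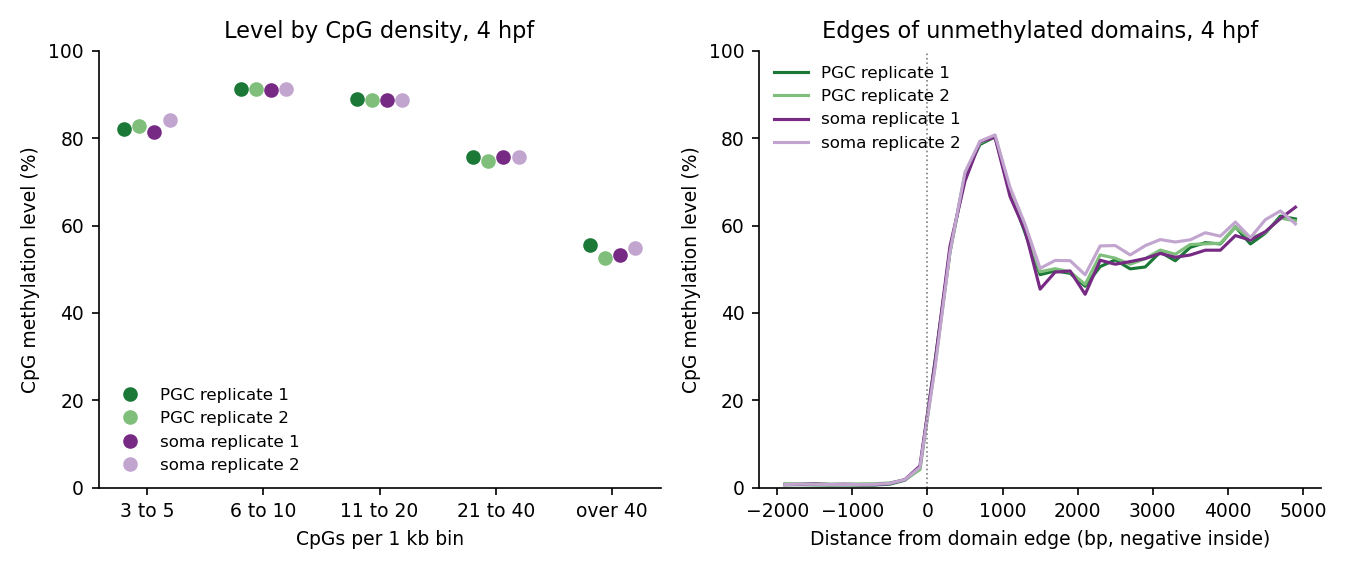
Methylation level (%) of the 4 libraries at 4 hpf by number of CpGs per 1 kb bin (left) and by distance from the edge of wide unmethylated domains in bp, negative inside the domain (right). Points and lines are single libraries, green for PGCs and purple for soma; the lines of the 4 libraries run together across the edge, from about 4 to 5% just inside to 27.3 to 28.8% just outside.

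Compartments of the genome were next compared. They were set by position, by CpG spacing, by calls of the 12 later libraries or by levels at later stages. Those levels were of 7 hpf alone or with 24 or 36 hpf, cell types summed. Thus 4 hpf levels took no part in the choice. In 10 of 13 compartments the group means differed by less than 0.3 points. CpG-dense bins methylated at 7 hpf (80% and over, at least 21 CpGs) were at 95.8% and 95.9% in PGCs and 95.5% and 95.8% in soma. CpG-poor methylated bins were at 95.2% and 95.4% in PGCs and 94.8% and 95.2% in soma. In both, PGC libraries were above soma libraries, by 0.198 and 0.282 points (exact permutation p = 0.333 each, 1 after adjustment over the 13 compartments). Without soma replicate 1 the differences were 0.0560 and 0.108 points, and without soma replicate 2 they were 0.340 and 0.457. Bins that later lose methylation between 7 and 24 hpf were still at 95.01% and 94.6% in PGCs and 94.6% and 94.6% in soma. Those that gain it by 36 hpf were at 4.36% and 4.41% in PGCs and 4.64% and 4.30% in soma. In both sets the groups overlapped, as they did in bins at intermediate levels, at 49.4% and 49.3% in PGCs and 49.0% and 50.04% in soma.

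The other 3 compartments gave larger gaps, in which soma replicate 1 had a large part. The long arm of chromosome 4 was at 87.3% and 87.2% in PGCs and at 81.4% and 86.6% in soma. Chromosome ends (within 500 kb) were at 70.0% and 70.0% in PGCs and 63.7% and 71.3% in soma. High-copy CpGs, with more than 4 times the median calls of the later libraries, were at 79.0% and 78.4% in PGCs and 69.0% and 77.0% in soma. Without soma replicate 1 the differences were 0.660, -1.26 and 1.74 points, respectively. Most of each gap lay in a single locus. Without its 649 CpGs, an alternative chosen after seeing the data, the soma replicate 1 values were 90.5%, 72.0% and 84.9% in the 3 compartments. The differences of the group means then fell from 3.23 to 0.265 points, from 2.51 to -0.482 points and from 5.73 to 0.548 points. With each CpG counted once and the locus kept, they were 0.224, 0.166 and 0.481 points.

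That locus lies near the end of chromosome 4 (chr4:76320001-76327000 in danRer10, positions counted from 1). It was found after values were seen, and its limits were set as the run of consecutive 1 kb bins at 4 or more times the library's median depth in all 16 libraries that held the most calls at 4 hpf. No annotation of this build was used, so its content is not named. Its 7 bins hold 18 to 125 CpGs each. The level at 4 hpf was 20.1% and 18.2% in PGC replicates 1 and 2, from 60827 and 129863 calls, and 10.2% and 13.2% in soma replicates 1 and 2, from 95664 and 184576 calls. Both PGC libraries were above both soma libraries in all 7 bins, and the group means were 19.1% ± 1.30 and 11.7% ± 2.16 (SD, n = 2, exact permutation p = 0.333). Over all bins, 16.6% had both PGC libraries above both soma libraries by any margin and 13.6% below. In edgeR's quasi-likelihood test the smallest adjusted p of a bin of the locus was 0.813, so that 0 of its 7 bins were called.

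One library stood apart in the coverage of the locus at 4 hpf, and replicate 1 was the deeper at every stage. Relative to the median 1 kb bin of the library, its depth per CpG was 35.3 and 27.9 in PGC replicates 1 and 2 and 74.8 and 29.2 in soma replicates 1 and 2. The shallow soma library, in which the level was lowest, thus had more than 2 times the relative depth of the others. At every stage both replicate 1 libraries were above both replicate 2 libraries in relative depth. At 7 hpf it was 20.6 and 13.9 in PGC replicates 1 and 2 and 46.0 and 12.8 in soma replicates 1 and 2. PGC replicate 2 and soma replicate 2, at depths of 27.9 and 29.2, had levels of 18.2% and 13.2%. Split by call, the methylated depth was 7.08 and 5.09 in PGCs and 7.61 and 3.86 in soma, while the unmethylated depth was 28.2 and 22.8 in PGCs and 67.2 and 25.3 in soma. The groups overlapped in relative depth and in both of its parts (exact permutation p = 0.667, 1 and 0.667). The part of copy number or mapping in these levels was not tested.

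Of the 89 runs of such high-copy bins, 127 bins in all, the locus was the longest. The 2 runs that followed it by number of calls were close to fully methylated, where a gap of its size has little room. The next, chr22:39221001-39223000 at 126 to 341 times the median depth, was at 95.5% and 95.5% in PGCs and 95.5% and 95.3% in soma. The third, chr5:826001-828000, was at 97.0% and 97.1% in PGCs and 96.8% and 97.1% in soma. Only 6 of the 89 runs had a level of 10 to 60% at 4 hpf. A run at a higher but not full level, chr17:53292001-53294000, was at 66.2% and 69.2% in PGCs and 61.1% and 73.1% in soma. The groups overlapped there, and the relative depth was 51.2 and 26.4 in PGCs and 61.5 and 23.1 in soma. Both replicate 1 libraries were thus lower in level and higher in depth there than both replicate 2 libraries. Among them soma replicate 1 was lowest in level and highest in depth, as at the locus. This was not so in every run. At chr20:55336001-55339000 soma replicate 1 was highest in depth (53.6) and also in level. The level there was 88.0% and 86.9% in PGCs and 88.2% and 86.5% in soma. Over the 89 runs both PGC libraries were above both soma libraries in 12, below in 9 and overlapping in 68, and the median absolute difference was 0.691 points. Of all 1 kb bins, 16.6% were above and 13.6% below in this way, so that the runs were not separated more often than other bins.

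With age the locus gained methylation in both cell types and its relative depth fell. At 7 hpf the level was 37.5% and 23.7% in PGCs and 27.6% and 21.5% in soma. By the prim-5 stage (24 hpf) it stood at 55.9% and 49.2% in PGCs and 61.5% and 61.4% in soma, so that both PGC libraries were now below both soma libraries. In the oldest embryos (36 hpf) it reached 70.6% and 65.2% in PGCs and 67.8% and 66.7% in soma. Relative depth was 13.2 and 7.41 in PGCs and 9.30 and 6.90 in soma by then. Over the 3 later stages the mean difference was -0.736 points (exact two-sided permutation within stages, 216 relabellings, p = 0.824).

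**Figure D3:**
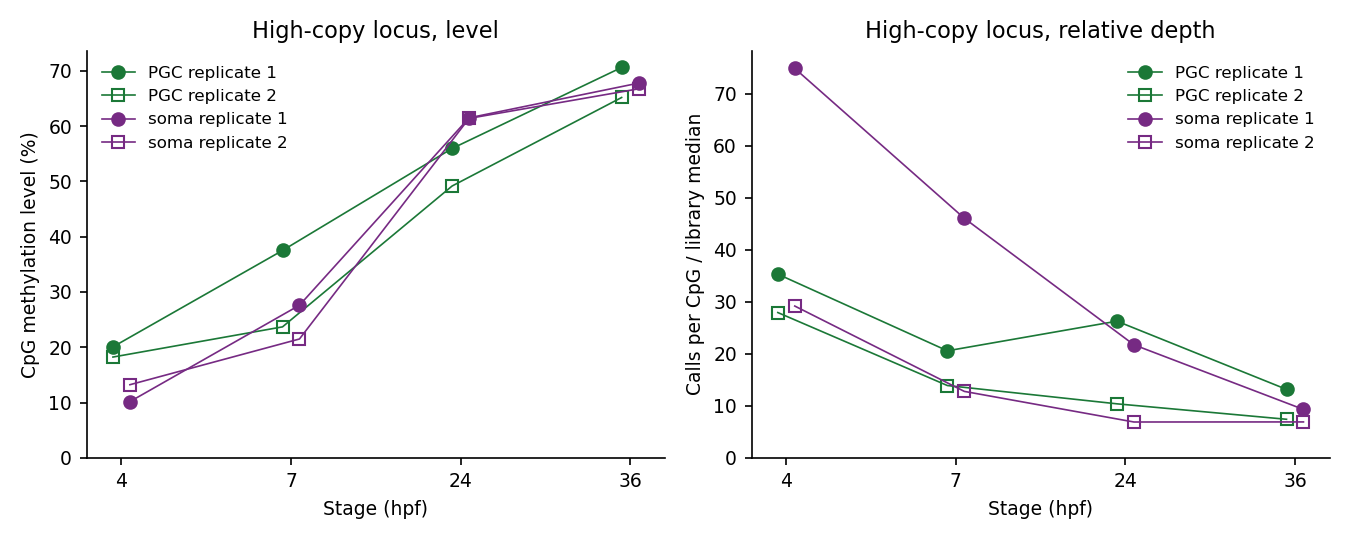
The high-copy locus near the end of chromosome 4 in all 16 libraries, as methylation level in % (left) and calls per CpG over the library's median 1 kb bin (right), against stage in hpf. Symbols are single libraries, green for PGCs and purple for soma, filled circles for replicate 1 and open squares for replicate 2; the level rises from 10.2 to 20.1% at 4 hpf to 65.2 to 70.6% at 36 hpf, and soma replicate 1 at 4 hpf stands apart in depth at 74.8.

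Single bins were then tested across the genome. With edgeR's quasi-likelihood test of methylated against unmethylated calls and Benjamini-Hochberg adjustment over 361294 bins, 25 bins were called (0.00692%), 10 higher in PGCs (0.00277%) and 15 lower (0.00415%). Without adjustment 12164 bins (3.37%) had p under 0.05. limma on the log ratio of the same calls gave 0 bins, with 15958 at an unadjusted p under 0.05, and edgeR called 0 bins at 10 kb. The calls were few, and which bins they were depended on single libraries. Leaving out one library gave 6 calls without PGC replicate 1 (3 of them among the 25), 62 without PGC replicate 2 (10 shared), 27 without soma replicate 1 (11 shared) and 326 without soma replicate 2 (8 shared). Of the 25 bins, 0 were called in all 4 of these fits and 5 in none.

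In 24 of the 25 bins the PGC and soma libraries did not overlap. Their choice by a test on these same libraries made this likely. Among all bins tested, 16.6% had both PGC libraries above both soma libraries by any margin and 13.6% below. Several of the calls higher in PGCs rested on the shallow soma library. At chr2:35364001-35365000 the levels were 98.1% and 97.0% in PGCs and 14.8% and 87.8% in soma (adjusted p = 0.000194, edgeR). At chr2:57527001-57528000, where the groups overlapped, they were 99.2% and 97.7% in PGCs and 34.7% and 98.2% in soma (adjusted p = 0.0182, edgeR). At chr8:34482001-34483000 they were 98.4% and 98.7% in PGCs and 69.8% and 96.9% in soma (adjusted p = 0.0182, edgeR). In each of these 3 bins soma replicate 1 was by far the lowest library.

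The widest separations, chosen after seeing the values, were gaps of over 37 points between the nearest libraries of the 2 groups, in 5 bins. At chr24:39679001-39680000 (8 CpGs) the level was 25.9% and 44.4% in PGCs and 89.8% and 88.4% in soma, from 27, 27, 49 and 86 calls (adjusted p = 0.0493, edgeR, and called in 0 of the fits without a library). At chr9:54295001-54296000 (10 CpGs) it was 33.3% and 45.7% in PGCs and 86.7% and 89.2% in soma (adjusted p = 0.00318, edgeR). At chr1:38520001-38521000 (21 CpGs) it was 31.5% and 33.2% in PGCs and 73.3% and 85.6% in soma (adjusted p = 0.00405, edgeR). These bins were methylated in soma and partly unmethylated in both PGC libraries. The same held at chr10:6211001-6212000 (15 CpGs), at 54.1% and 37.0% in PGCs and 91.9% and 98.2% in soma (adjusted p = 0.000194, edgeR). The opposite was seen at chr25:4565001-4566000 (15 CpGs), at 95.6% and 74.6% in PGCs and 0% and 35.3% in soma, where the value of 0 rests on 29 calls (adjusted p = 0.00318, edgeR). These 15 CpGs lay within 58 bp, where a single read can cover them all. The 29 calls, 1.93 per CpG, are therefore not independent and come from few reads. The 8 CpGs of the bin on chromosome 24 lay within 137 bp, and the 10 on chromosome 9 within 149 bp. On chromosome 1, 20 of the 21 CpGs lay within 118 bp, and PGC replicate 1 had 73 calls in the bin.

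Gaps of this size in both replicates were not seen at later stages. At chr10:6211001-6212000 the groups were still separated at 7 hpf, at 75.9% and 84.8% in PGCs and 98.0% and 97.0% in soma. The differences there, in order of stage, were -17.2, 4.01 and 3.11 points. At chr24:39679001-39680000 PGCs were at 96.8% and 84.8% and soma at 98.1% and 87.8% at 7 hpf, a difference of -2.15 points. At chr1:38520001-38521000 PGCs were at 68.8% and 74.3% and soma at 65.7% and 24.5%, so that PGCs were higher by 26.4 points. At chr9:54295001-54296000 the later differences, in order of stage, were -12.8, -12.1 and 6.35 points. At chr25:4565001-4566000 it was 22.2 points at 7 hpf and -36.9 at 36 hpf, with single libraries between 24.0% and 100%. This last bin varied widely among libraries of one cell type and stage.

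Bins whose 2 PGC libraries were separated from both soma libraries by at least 10 points were counted next, with no test. There were 394 such bins higher in PGCs (0.109%) and 438 lower (0.121%). With a gap of at least 20 points there were 41 (0.0113%) and 76 (0.021%), and with at least 5 points 2347 (0.65%) and 2149 (0.595%). The balance thus moved towards bins lower in PGCs as the gap grew. With at least 40 calls in each library, where 139484 bins were kept, there were 121 higher (0.0867%) and 158 lower (0.113%).

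Of the bins with this gap of at least 10 points and at least 40 calls in each library, the 4 with the largest difference of group means in each direction were as follows. Lower in PGCs were chr24:2675001-2676000 (48.5% and 19.8% in PGCs, 97.6% and 65.7% in soma), chr1:38520001-38521000 given above, chr9:6703001-6704000 (35.3% and 34.8% in PGCs, 57.8% and 98.7% in soma) and chr4:63277001-63278000 (44.8% and 33.2% in PGCs, 98.4% and 63.5% in soma). Their adjusted p in edgeR ran from 0.00405 to 0.0655. Higher in PGCs were chr1:19920001-19921000 (75.9% and 72.1% in PGCs, 17.3% and 50.2% in soma), chr24:1902001-1903000 (89.8% and 82.8%, against 21.4% and 70.7%), chr19:25954001-25955000 (80.6% and 71.1%, against 17.1% and 56.8%) and chr7:26531001-26532000 (92.6% and 46.7%, against 30.4% and 32.4%). Their adjusted p in edgeR ran from 0.12 to 0.623, and 0 of these 4 bins were called. The called bin chr2:35364001-35365000 had a larger difference of group means, 46.3 points, but a gap of 9.21 points between the nearest libraries, and so was not among them. In 3 of these 4 bins soma replicate 1 was lower than soma replicate 2 by over 30 points.

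A finer search tested smoothed calls, with a Wald test in place of the DSS package that the study used. Each replicate was tested alone on calls summed over 500 bp, and CpGs that passed in both replicates in one direction were joined. Of 10260021 CpGs, 48258 passed in replicate 1 and 21612 in replicate 2. Those that passed in both with opposite signs were not counted. With one sign in both, 2219 CpGs passed (0.0216%). They formed 107 differing regions, 45 higher in PGCs and 62 lower, spread over 21 and 22 chromosomes. Without smoothing there were 0 regions, so that each region named here rests on calls summed over neighbouring CpGs. Regions higher in PGCs had a median length of 130 bp and 12 CpGs, and their median levels were 72.8% and 67.5% in PGCs and 22.6% and 41.6% in soma. Regions lower in PGCs had a median length of 149.5 bp and 15 CpGs, with median levels of 29.9% and 39.7% in PGCs and 79.5% and 74.2% in soma. Of the 107 regions, 11 (10.3%) lay in bins called by edgeR, and 11 of the 25 called bins (44.0%) held such a region. Both lists were drawn from the same libraries, so that their overlap is no independent agreement. Each replicate's test compares 2 libraries and covers counting error only, and regions in repeats were not removed here.

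Few regions were well covered. At least 5 calls per CpG in each of the 4 libraries were found in 5 of the 45 regions higher in PGCs and in 11 of the 62 lower. The 5 higher regions were chr18:44988341-44988462 (76.6% and 90.8% in PGCs, 31.1% and 69.8% in soma), chr22:12605174-12605269 (58.7% and 50.9%, against 26.4% and 28.2%), chr4:61862656-61862833 (47.7% and 35.6%, against 20% and 11.04%), chr23:11532689-11532918 (36.3% and 37.1%, against 14.3% and 23.1%) and chr15:43140760-43141044 (42.4% and 46.4%, against 24.6% and 31.1%). In all 5 the groups did not overlap, as the rule on both replicates made likely.

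The 6 well-covered regions with the largest differences lower in PGCs were led by chr18:14000194-14000274, at 17.6% and 56.7% in PGCs and 80% and 67.9% in soma, and chr8:48094707-48094795, at 9.33% and 1.98% in PGCs and 51.9% and 32.6% in soma. A further pair are neighbours on chromosome 6. At chr6:20625294-20625449 the level was 31.3% and 27.9% in PGCs and 53.8% and 49.5% in soma, and at chr6:20625501-20625599 it was 8.59% and 10.4% in PGCs and 34.4% and 39.2% in soma. Here the 2 replicates of each cell type were within 5 points of each other. The last 2 were chr10:26638025-26638193, at 31.6% and 22.5% in PGCs and 66.7% and 42.9% in soma, and chr17:4979945-4980079, at 0% and 16.8% in PGCs and 19.6% and 42.1% in soma, where the 0 is from 86 calls.

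By 7 hpf the levels at chr6:20625501-20625599 were 39.5% and 41.5% in PGCs and 46.9% and 56.0% in soma. PGCs thus differed by -10.96 points there, and the later differences were 1.18 (24 hpf) and 6.81 (36 hpf). At chr4:61862656-61862833 PGCs were higher by 0.760 points at 7 hpf, by 20.6 at the prim-5 stage (24 hpf; 41.2% and 39.7% against 16.5% and 23.1%) and by 8.08 one stage later. It was the only one of the 5 well-covered higher regions whose mean was higher in PGCs at each later stage. At 7 hpf, however, it was at 15.3% and 28.3% in PGCs and 18.0% and 24.1% in soma. The groups overlapped there, and the replicates had opposite signs.

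As a set, the regions that differed at 4 hpf showed no later difference that passed a test over the 3 stages. The libraries of 7, 24 and 36 hpf took no part in choosing them, and the mean difference over members was tested by exact two-sided permutation within stages (216 relabellings, smallest p 0.00926). The 62 regions lower in PGCs, at a mean of -35.7 points at 4 hpf, were at 1.71, -2.87 and 3.804 points in order of stage (0.883 over the 3, permutation p = 0.435). The 45 regions higher in PGCs, at 35.6 points, were at 1.30, 1.16 and 0.133 points (0.863 over the 3, permutation p = 0.472). Among the 62 regions PGCs were higher in 32 at 7 hpf, in 20 at 24 hpf, where both replicates were below 0 on average (-2.29 and -3.45 points), and in 42 at 36 hpf, where both were above (4.31 and 3.29). The direction of single stages thus turned between them, and no stage was tested alone. Among the 45 regions PGCs were higher in 25, 25 and 19. Regions share the libraries of each stage, so these counts are no independent repeats. The share of all bins higher in PGCs at these stages is not given beside them.

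The same was done for the bins, after the region result was seen. The 15 called bins lower in PGCs went from -35.2 points at 4 hpf to a mean of -0.207 later (permutation p = 0.861), and the 10 higher went from 32.1 to -1.84 (permutation p = 0.519). The 438 non-overlapping bins lower in PGCs went from -24.2 points to -0.0638 (permutation p = 0.935), and the 394 higher went from 22.7 to 0.164 (permutation p = 0.713). In the non-overlapping bins the levels of PGCs and soma at 7 hpf met between the values of 4 hpf. Bins lower in PGCs were at 64.2% and 60.2% in PGCs and 61.2% and 61.8% in soma, from 44.0% and 48.9% in PGCs and 73.4% and 67.8% in soma at 4 hpf.

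**Figure D4:**
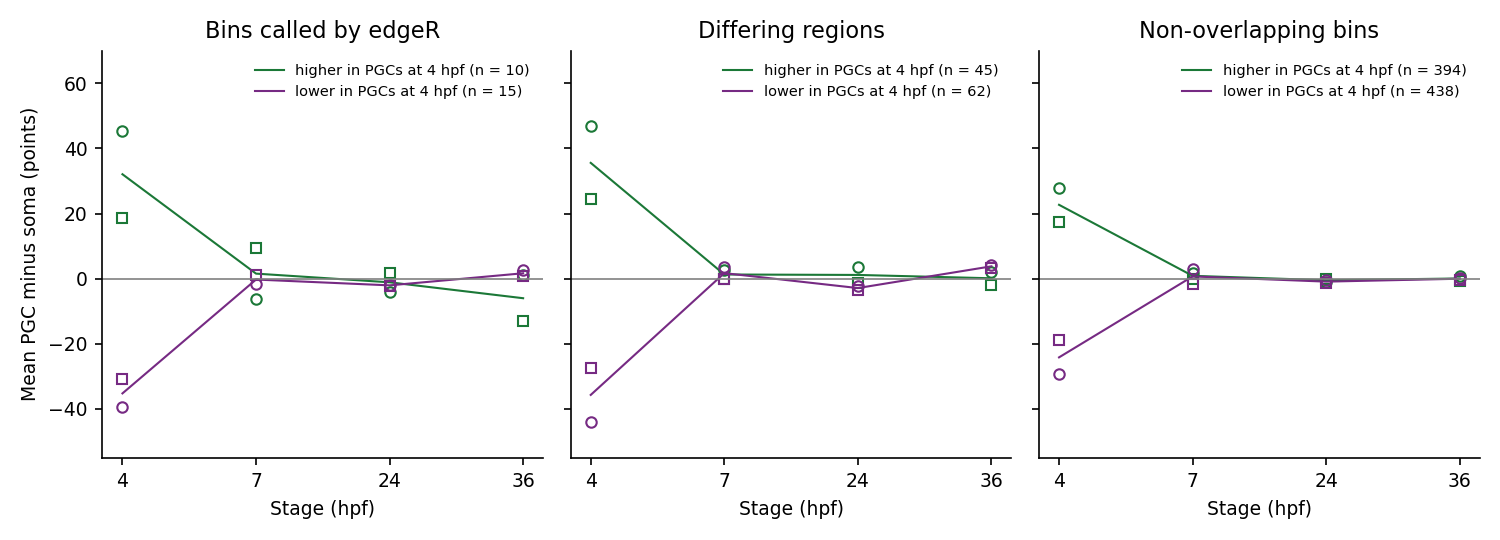
Mean PGC minus soma difference in methylation (points) against stage in hpf for 3 sets of loci chosen at 4 hpf, namely bins called by edgeR, differing regions and non-overlapping bins, each split by direction. Lines are the mean of the 2 replicates and symbols the replicates (circles 1, squares 2); the values at 4 hpf, which chose the loci, lie between 17.4 and 46.8 points from 0, and the later means lie within 6 points of it.

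Bins chosen in one 4 hpf replicate were also measured in the other, which shares no library with it. Fisher's exact test (adjusted under 0.05, at least 20 points) chose 882 bins higher in PGCs (0.244%) and 728 lower (0.201%) in replicate 1. In replicate 2 their mean difference was -1.51 points against 39.0 in the replicate that chose them, and -1.15 points against -40.9. Replicate 2 chose 309 bins higher (0.0855%) and 468 lower (0.130%), and their mean difference in replicate 1 was 0.763 points against 28.6, and 0.119 points against -28.3. The direction was kept in 47.5%, 49.0%, 51.1% and 50.2% of these 4 sets. Over all bins, 52.8% were higher and 46.3% lower in PGCs in replicate 2, and 45.0% and 43.5% in replicate 1.

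A difference of at least 20 points in the chosen direction was seen in the other replicate for 3.40% and 8.24% of the bins chosen in replicate 1, and for 20.4% and 22.0% of those chosen in replicate 2. The share over all bins was 0.133%, 0.180%, 0.881% and 0.727%, respectively. Chosen bins thus varied widely in the other replicate too, in either direction. Their mean level there was between the extremes, at 66.7% in PGCs and 68.2% in soma for the bins higher in PGCs in replicate 1.

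Across all bins the 2 replicates' differences had Pearson's r of -0.00438 (n = 361294 bins, which share libraries and depth, so no p is given). The sign was the same in 44.1% of bins and opposite in 43.9%. The difference had an SD over bins of 6.38 points in the shallow replicate 1 and 3.55 in replicate 2, and 92.6% of bins in replicate 1 were within 10 points. With every library thinned to 20 calls per bin, the SD was 7.90 and 7.11 points between cell types and 7.39 and 7.71 points between the replicates of PGCs and of soma. Counting noise takes a share of each of these SDs at such a depth, and it was not separated from them.

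**Figure D5:**
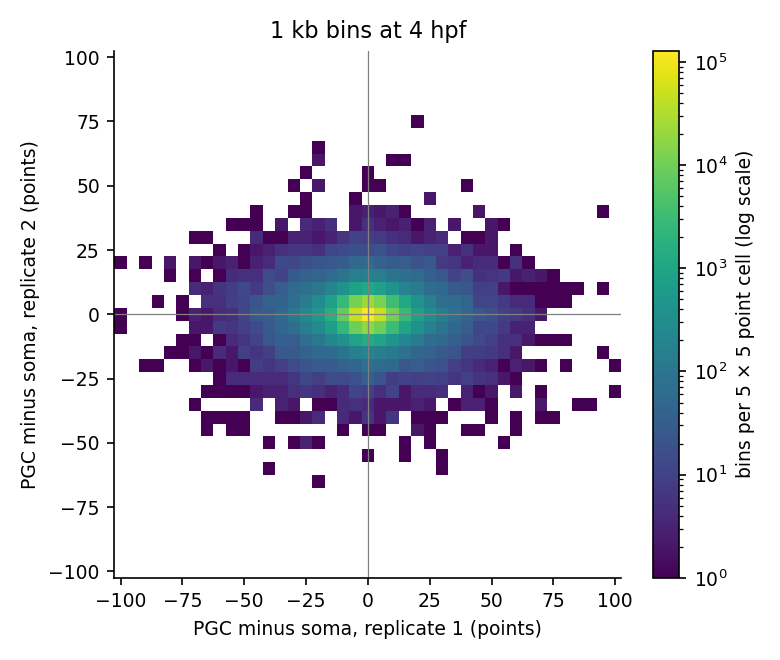
Number of 1 kb bins (colour, log scale) by PGC minus soma difference at 4 hpf in replicate 1 (horizontal, points) and in replicate 2 (vertical, points), in cells of 5 by 5 points. The 361294 bins form a cloud along both axes with r of -0.00438, wider along replicate 1 (SD 6.38 points) than along replicate 2 (SD 3.55 points).

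The PGC minus soma difference at 4 hpf was then set against those of the later stages, and no measure passed the test. For the mean over CpGs the same-numbered differences were 0.256 and 0.189 points at 4 hpf, while the 6 later values ran from -0.129 (36 hpf, replicate 1) to 0.741 (24 hpf, replicate 1). Those at 4 hpf lay within the range of the later ones, and the means differed by -0.158 points (exact two-sided permutation of stage labels, 28 relabellings, p = 0.607). For the pooled level they differed by -0.729 points (exact permutation p = 0.357). Here the replicate 2 value at 4 hpf, -0.880, was below all 6 later values (-0.0887 to 1.63), while that of replicate 1 was within them. Over 7 such measures, density classes included, the exact p-values ran from 0.321 to 0.786 and were at least 0.700 after Benjamini-Hochberg adjustment.

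In 359666 bins with at least 20 calls in all 16 libraries, the number separated by at least 10 points was 383 higher and 426 lower in PGCs at 4 hpf, and in order of the later stages 150, 392 and 106 higher and 106, 219 and 207 lower. The depth differs between these stages. After thinning to 20 calls per bin, a comparison added after seeing the data, bins separated by at least 20 points made up 0.0717% (higher) and 0.0829% (lower) at 4 hpf. The later stages, in order, had 0.0534%, 0.103% and 0.0865% higher and 0.0389%, 0.0676% and 0.114% lower. By this count 4 hpf was within the range of the later stages in both directions. Before thinning it had the most bins lower in PGCs, and since the gap asked for differs as well as the depth, the 2 counts cannot be compared with each other.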

How the data were processed

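The authors deposited raw counts, with no normalization: for each CpG and each library, the methylated calls and the coverage, one replicate number to a table. Per the study's methods and the submitters' processing notes, 150 bp paired reads were trimmed with fastp (version 0.12.5), aligned by WALT to a reference of danRer10 plus lambda, deduplicated with Picard (version 2.3.0) and counted with MethylDackel, with both strands of a CpG merged and likely variant sites dropped. For these counts, the version of MethylDackel is not given in the sources used here. No listed CpG has a coverage of 0 in any library of its table, so the shallowest library limits the CpG set. The shared CpGs were 96.9% of the replicate 1 table and 56.6% of the replicate 2 table. The tables count positions from 0, and positions are printed counted from 1.

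Sample titles gave the groups and the replicate numbers. Calls were summed per CpG, bin or region and divided by coverage, at a depth of 24656904 to 112437459 calls per 4 hpf library. A 1 kb bin was kept with 3 or more CpGs and 20 or more calls in every library. They were tested with edgeR 4.0.16 (R 4.3.3) on methylated and unmethylated counts with a term per library, and with limma 3.58.1 as an alternative. Differing regions needed, in each replicate, a Wald test adjusted under 0.05 and 10 points on calls summed over 500 bp, with the spread scaled by the median absolute deviation (1 in replicate 1 and 1.13 in replicate 2), then joining of CpGs up to 50 bp apart, a size of 5 CpGs and 50 bp or more, and, per cell type with replicates summed, no more than 25% of CpGs below 5 calls. Python 3.11.15, NumPy 2.4.6, SciPy 1.17.1 and numba 0.67.0 were used. The edgeR test was also run on simulated counts built from the coverage and pooled levels of these bins, with no result given here.

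The compartments, bins, regions and tests were chosen with earlier results of these data known. Named were, by rule, the 6 well-covered regions per direction with the largest difference (5 higher were found), 4 non-overlapping bins per direction, and the 2 highest and 2 lowest chromosomes. Alternatives covered CpG sets, weighting, coverage minimums, bin sizes, thresholds, smoothing, tests, replicate pairing and leaving out libraries. A further 4 were added after seeing the data: both sets without the high-copy locus, the later levels of the bins, and the spread at equal depth. No gene annotation or genome of danRer10 was used here, so no genes are named, no sequences are shown and regions in repeats were not removed.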

Additional observations from a re-analysis of the deposited data

Results flagged for a closer look

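At the high-copy locus near the end of chromosome 4, both PGC libraries were above both soma libraries at 4 hpf, by a mean of 7.45 points, and both were below both soma libraries at 24 hpf, where the difference was -8.89 points. The directions were opposite at these 2 stages in every pair of libraries, and the difference between the stages was not tested. The relative depth of the locus moved over the same libraries, from 27.9 to 74.8 at 4 hpf to between 6.89 and 26.3 at 24 hpf.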

How the results depend on the processing

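Depth limits these results, with 2.40 calls per CpG in soma replicate 1, and so do replicates that may be technical. For the pooled level, all 9 alternatives moved the difference by less than the SD of the soma replicates (0.7996 points), but it was -0.901 without soma replicate 1, 0.230 without soma replicate 2 and -1.06 in CpGs with at least 5 calls, against -0.336. The 30 alternatives for the density classes also stayed within the replicate SDs. For compartments, equal weights for CpGs gave 0.191 points in the shores beside unmethylated runs and 0.173 points in bins gaining methylation, where pooled calls gave -0.0536 and -0.0826. They also took the chromosome 4 long arm, chromosome ends and high-copy CpGs from 3.23, 2.51 and 5.73 to 0.224, 0.166 and 0.481 points. In bins of 20 to 50% a minimum of 40 calls gave -0.281 points, the mean of replicates of opposite sign.

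The 25 calls of edgeR became 0 with at least 40 calls, at 10 kb and with limma, 14 without a filter on calls, 12 in 500 bp bins, and 6 to 326 when a library was left out, the most without soma replicate 2. The 107 regions became 0 without smoothing and 59 at 20 points. Leaving out a library gave 252 to 1031, since 1 replicate's test then decides. The 832 non-overlapping bins became 4496 at 5 points, 117 at 20 points and 279 at 40 calls. The correlation of the replicates' differences was -0.0126 at 40 calls and 0.0142 at 10 kb.

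With the replicate number as a replicate block, edgeR called 14 bins (13 of the 25) and the region test, as a Cochran-Mantel-Haenszel test, called 911 regions. The labels do not say what a number shares. Deviations of same-numbered libraries had r of 0.0189 over 1 kb bins and 0.0862 over 10 kb bins. At the high-copy locus of chromosome 4, relative depth split by replicate number at every stage.

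The mean later difference of regions lower in PGCs was -0.577 without 36 hpf, -0.783 in well-covered regions and -0.0700 and 1.84 without replicate 1 and 2. That of regions higher in PGCs was -1.14 and 2.86 without replicate 1 and 2. Without replicate 1 or 2, the difference of 4 hpf from later stages was -0.532 and 0.0672 at 3 to 5 CpGs, and -2.11 and 1.27 at over 40 CpGs. At chr2:57527001-57528000 the difference was 0.197 points without soma replicate 1, against 32.0.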
